A study of Anguilla japonica with 6 samples.

Results

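The genes examined here are esr1, esr2b, pgr and pgrmc2, a set of 4 sex steroid receptor genes and related steroid-binding genes of the pituitary, out of 32359 genes measured by RNA-seq. They were chosen by gene symbol, each symbol marked 1 gene of the table, and all 4 were expressed highly enough to be tested. The libraries came from the pituitary of females of Anguilla japonica, the Japanese eel, which matures late in life, and comprised 3 libraries labelled matured and 3 labelled pre-matured. No genotype, strain, age in years, hormone treatment or batch is given for either group, and whether the animals matured by themselves or after hormone injection is not stated, so maturation and any such treatment cannot be told apart. Only the titles set libraries apart, with no word on individual animals, and p-values therefore measure the spread between these samples.

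Estradiol and progestins from the ovary act back on the pituitary, where they change the synthesis and release of gonadotropins and the sensitivity of the gland to releasing hormones. Estrogen receptors (esr1 encodes estrogen receptor alpha, esr2b a fish form of estrogen receptor beta) and the progesterone receptor (pgr) are nuclear receptors: they bind the hormone, settle on DNA and recruit coactivators or corepressors. In mammals, pgr is itself a classic target of the estrogen receptor. The product of pgrmc2 belongs to a different family, membrane-associated heme-binding proteins related to cytochrome b5, and has no DNA-binding domain, so the name progesterone receptor membrane component does not make it a receptor of the same kind.

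Expression is given as FPKM, reads scaled to the length of the gene and to the depth of the library, so that levels of different genes can be set side by side. Depth, rebuilt from the deposited values, ran from 16033675 to 19619964 reads per library in the matured group and from 18206029 to 19276653 in the pre-matured group. Pituitary genes marked the tissue in all 6 libraries: the growth hormone gene gh1 and the corticotroph and melanotroph factor tbx19 were detected throughout. Entries under the symbols of 2 other pituitary hormones were at or near 0, with prl (prolactin) reaching 0.0436 FPKM and tshba (thyrotropin beta subunit) 1.01 FPKM at most. Any copies of these genes under LOC identifiers were not looked up. Across 17887 tested genes, limma called 33.4% at an adjusted p under 0.05, with 23.4% higher and 10% lower in matured libraries, and 49.2% of tested genes had groups that do not overlap (33.3% with matured above, 15.9% with matured below). The median log2 fold change of all tested genes was 0.23, and the changes of the 4 genes are also given relative to it. Adjusted p-values from limma are Benjamini-Hochberg values over the genes tested. These numbered 17887 as reported, and from 10757 to 27501 where another filter or scaling was tried. Fold changes from limma are on the log2(FPKM + 1) scale, which understates the change of genes with low values. One matured library, matured 2, stood apart from the others of its group in gonadotroph genes, with low gnrhr4 and high fshb as given further on, and results for the 4 genes are also given without it. In bulk samples such as these, fewer cells of a type and less RNA per cell cannot be told apart.

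Both estrogen receptor genes examined here rose in matured libraries, and esr1 rose more than esr2b in the fitted values. The esr1 level was 108.9, 175.3 and 111.4 FPKM in matured 1, 2 and 3, and 11.3, 14.3 and 19.2 FPKM in pre-matured 1, 2 and 3. Every matured library lay far above every pre-matured one, and matured 2 stood highest. The mean was 132 ± 37.6 FPKM (SD, n = 3) in matured and 14.9 ± 3.99 FPKM (SD, n = 3) in pre-matured libraries, an 8.84-fold ratio of means. The limma log2 fold change was 3.05 ± 0.27 (SE; 95% confidence interval 2.45 to 3.66), with an adjusted p of 0.000761, and 2.82 relative to the median of all genes. These values rested on 849 to 13434 reads per library.

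The esr2b level was 24.5, 21.3 and 23.1 FPKM in matured 1, 2 and 3, and 3.95, 7.55 and 8.01 FPKM in pre-matured 1, 2 and 3. The matured libraries were close to one another and the groups did not overlap, while pre-matured 1 held the lowest level. Means were 23.0 ± 1.62 FPKM (SD, n = 3) and 6.50 ± 2.22 FPKM (SD, n = 3), a 3.53-fold ratio. The limma log2 fold change was 1.72 ± 0.27 (SE; 95% confidence interval 1.12 to 2.33), with an adjusted p of 0.00285, and 1.49 relative to the median of all genes. Read numbers ran from 425 to 2335.

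The progesterone receptor gene showed the largest change of the 4 and the widest spread between libraries. The pgr level was 156.2, 108.0 and 264.9 FPKM in matured 1, 2 and 3, and 5.09, 19.7 and 9.25 FPKM in pre-matured 1, 2 and 3. Matured 2, the library with the highest esr1, had the lowest pgr of its group, and pre-matured 2 had the highest pgr of its group; even so, no pre-matured library came near a matured one. Means were 176 ± 80.4 FPKM (SD, n = 3) and 11.3 ± 7.51 FPKM (SD, n = 3), a 15.6-fold ratio. The limma log2 fold change was 3.93 ± 0.48 (SE; 95% confidence interval 2.82 to 5.04), with an adjusted p of 0.00174, and 3.70 relative to the median of all genes. Ordered by log2 fold change among all tested genes, pgr was number 37, esr1 number 94 and esr2b number 1014.

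The spread between libraries was not a matter of read number for pgr. Its coefficient of variation was 45.6% in matured and 66.3% in pre-matured libraries, against 1.14% and 5.31% that counting of reads alone would give. For esr1 the spread was 28.5% and 26.7% against 1.21% and 3.43% from counting. The esr2b spread was narrow in matured libraries, 7.05% against 2.19% from counting, and wider in pre-matured ones, 34.2% against 4.85%. Each counting value is that of the library with the fewest reads in its group. Since no molecular identifiers are named in the labels, these counting values cover counting error only.

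In contrast to the nuclear receptors, pgrmc2 fell in matured libraries. Its level was 10.7, 11.7 and 10.5 FPKM in matured 1, 2 and 3, and 18.9, 22.3 and 21.7 FPKM in pre-matured 1, 2 and 3. Both groups were tight and did not overlap, with coefficients of variation of 5.92% and 8.51% against 4.76% and 3.26% from counting. Means were 11 ± 0.651 FPKM (SD, n = 3) and 21.0 ± 1.78 FPKM (SD, n = 3), 1.91-fold higher in pre-matured libraries. The limma log2 fold change was -0.87 ± 0.19 (SE; 95% confidence interval -1.30 to -0.44), with an adjusted p of 0.00950, and -1.10 relative to the median of all genes. The call depended on how libraries were scaled: with TPM the log2 fold change was -0.58 (adjusted p = 0.0860), and with totals that leave out genes above 1% of a library it was -0.56 (adjusted p = 0.0566), both by limma. Under these scalings the median of all genes moved to 0.53 and 0.51, and over the 8 alternatives that keep all libraries pgrmc2 stayed -1.23 to -0.97 relative to that median.

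**Figure D1:**
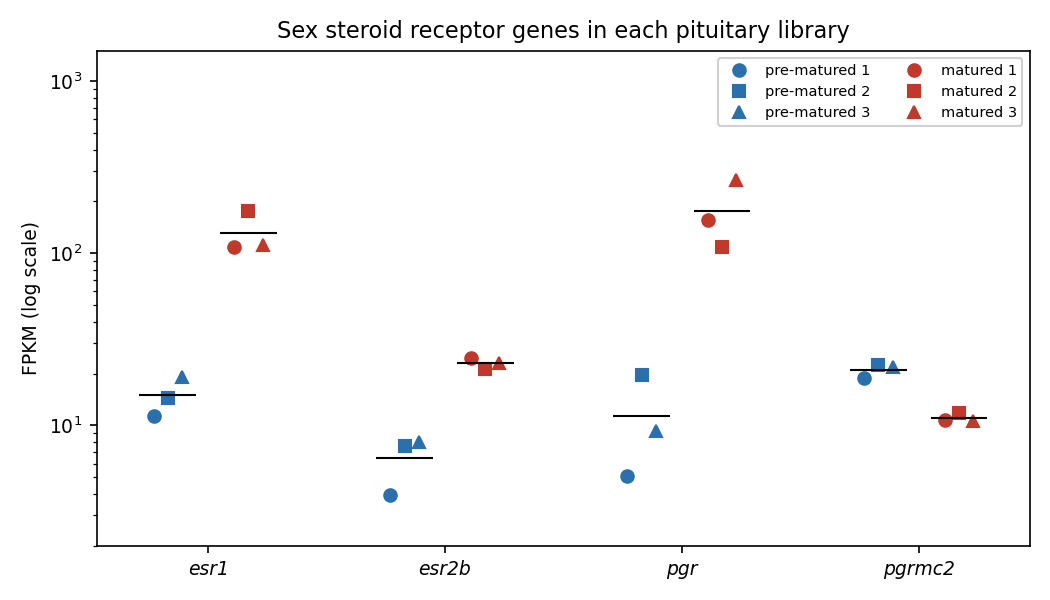
FPKM of each gene on a log axis, 1 point per library (circle, square and triangle for libraries 1, 2 and 3 of a group), pre-matured in blue and matured in red, with the group mean as a black line. The red points of esr1, esr2b and pgr all sit above the blue ones, and those of pgrmc2 all sit below.

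With each of the 6 libraries left out in turn, all 4 genes kept their direction and their call by limma. The log2 fold change then ran from 2.83 to 3.24 for esr1, from 1.45 to 1.88 for esr2b, from 3.51 to 4.39 for pgr and from -0.94 to -0.83 for pgrmc2. Without matured 2 the limma values were 2.83 (adjusted p = 0.00150) for esr1, 1.77 (adjusted p = 0.00949) for esr2b, 4.23 (adjusted p = 0.00367) for pgr and -0.92 (adjusted p = 0.0263) for pgrmc2. Under the 8 alternatives that keep all libraries, esr1 ran from 2.81 to 3.41, esr2b from 1.5 to 2.09 and pgr from 3.69 to 4.30, all called.

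**Figure D2:**
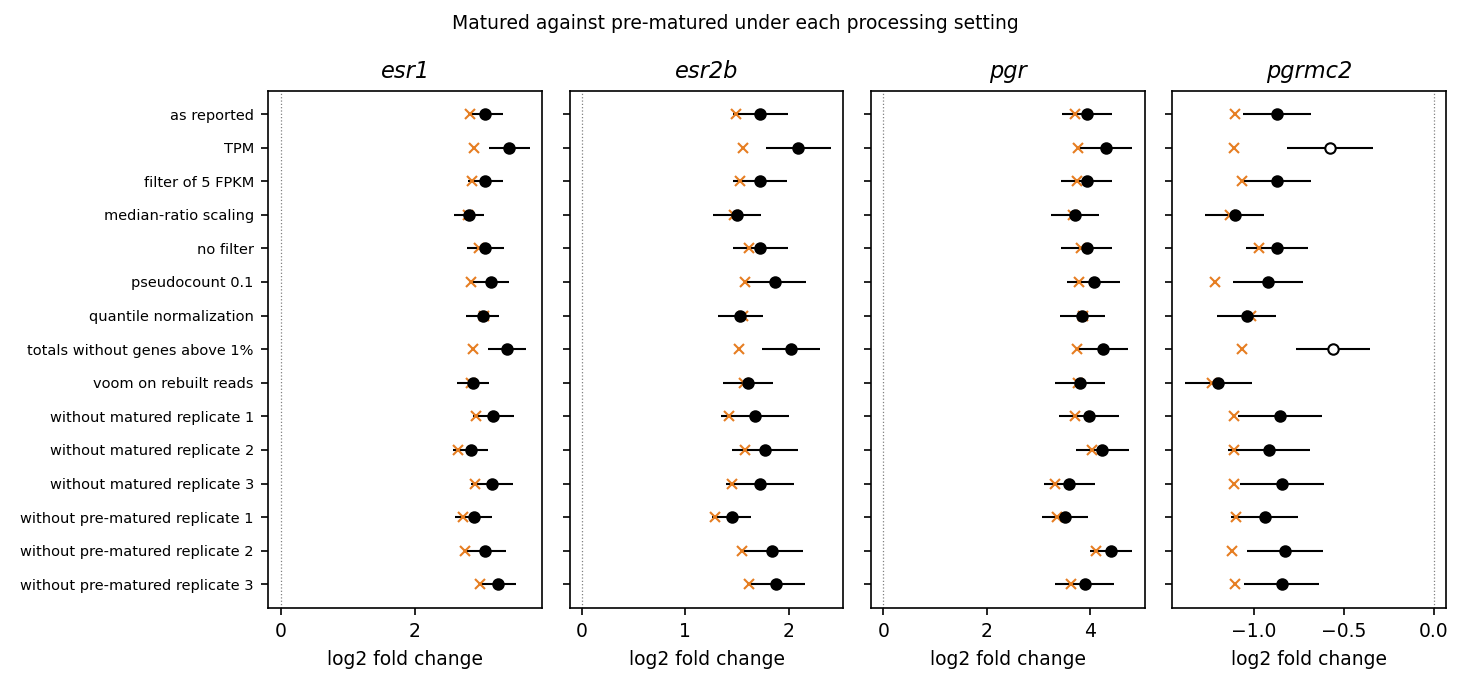
Log2 fold change of each gene (x axis, a range of its own in each panel) as reported and under 14 alternatives (y axis), with SE bars, filled where the adjusted p is under 0.05 and open where it is not, and an orange cross for the value relative to the median of all genes. Open symbols appear for pgrmc2 with TPM and with totals without genes above 1%, where its values were -0.58 and -0.56.

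The order of the 4 levels differed between the groups. In matured libraries the order of the means was pgr, esr1, esr2b and pgrmc2. The ranges of pgr and esr1 overlapped, whereas the lowest esr1 level, 108.9 FPKM, lay above the highest esr2b level of 24.5 FPKM, and the lowest esr2b level, 21.3 FPKM, lay above the highest pgrmc2 level of 11.7 FPKM. In pre-matured libraries pgrmc2 came first, followed by esr1, pgr and esr2b, and the ranges of each neighbouring pair overlapped. Ranked by FPKM among all 32359 genes, pgr stood between 224 and 520 in matured libraries and between 3409 and 8481 in pre-matured ones. The rank of esr1 moved from between 3320 and 4807 to between 320 and 496, that of esr2b from between 7111 and 9749 to between 2762 and 3401, and that of pgrmc2 from between 2940 and 3066 to between 6153 and 6230.

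Ratios between receptor genes within a library do not depend on how libraries are scaled, apart from the pseudocount. The FPKM ratio of esr1 to esr2b was 4.44, 8.23 and 4.83 in matured 1, 2 and 3, and 2.86, 1.90 and 2.40 in pre-matured 1, 2 and 3. All matured ratios were higher than all pre-matured ones, and matured 2 had the highest. The mean log2 ratio was 1.33 higher in matured libraries, with an exact two-sided permutation p of 0.1, the smallest that 3 against 3 libraries can give, and 0.133 adjusted over the 4 ratios. The pgr to esr2b ratio was 6.36, 5.07 and 11.5 against 1.29, 2.61 and 1.16, also without overlap, a log2 difference of 2.21 with the same exact p of 0.1 and adjusted p of 0.133.

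The ratio of pgr to esr1 did not separate the groups. It was 1.43, 0.616 and 2.38 in matured 1, 2 and 3, and 0.451, 1.37 and 0.482 in pre-matured 1, 2 and 3, so that matured 2 had more esr1 than pgr and pre-matured 2 more pgr than esr1, each unlike the other libraries of its group. The mean log2 difference was 0.87, with an exact two-sided permutation p of 0.2, also 0.2 adjusted over the 4 ratios. The difference was 0.43 without matured 3 and 1.40 without matured 2, and it lay between these values with any other library left out.

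For pgrmc2, the nearest relative in the table is pgrmc1, whose product is a partner of cytochrome P450 enzymes. The FPKM ratio of pgrmc2 to pgrmc1 was 0.360, 0.407 and 0.367 in matured 1, 2 and 3, and 1.04, 1.22 and 0.874 in pre-matured 1, 2 and 3. The genes were thus at near-equal levels in pre-matured libraries, and pgrmc1 was the higher one in every matured library. The mean log2 ratio fell by 1.38 in matured libraries, with an exact two-sided permutation p of 0.1, 0.133 adjusted over the 4 ratios.

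**Figure D3:**
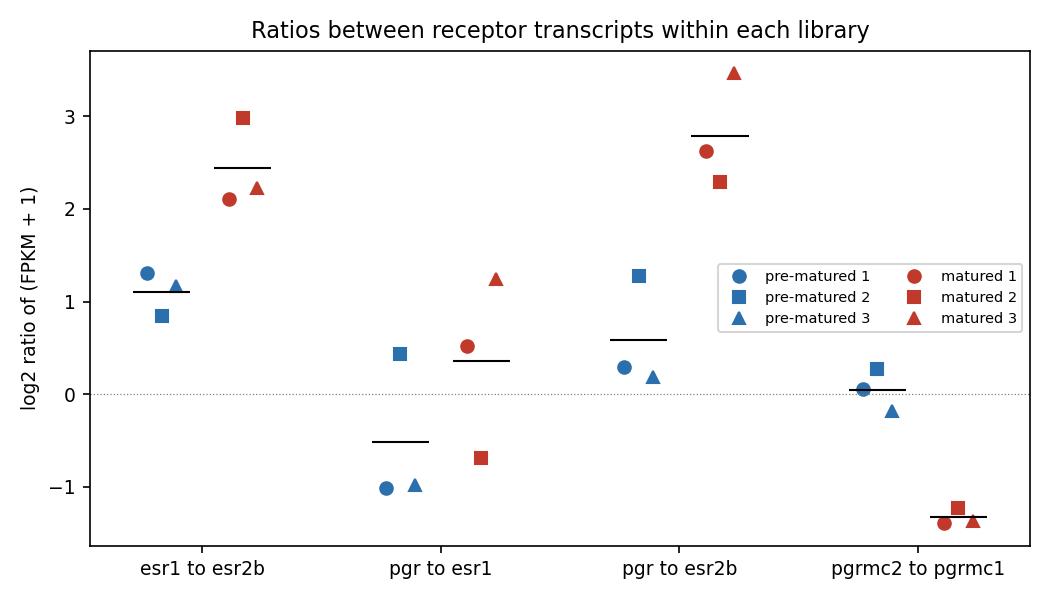
Log2 ratio of (FPKM + 1) for each pair of genes (y axis), 1 point per library, pre-matured in blue and matured in red, with the group mean as a black line. The groups do not overlap for esr1 to esr2b, pgr to esr2b and pgrmc2 to pgrmc1, and they do overlap for pgr to esr1.

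Other genes of the wider steroid receptor family were looked up by symbol. Of the 36 symbols listed, 16 were found and 10 were tested, of which 6 rose, 1 fell and 3 were not called, where 23.4% and 10% of all tested genes rose and fell. The median log2 fold change was 0.89 against 0.23 over all tested genes. These counts and this median include esr1, esr2b, pgr and pgrmc2, which were chosen with earlier results known. Of the other 6 tested, 3 rose, 0 fell and 3 were not called. The calls were nr3c1, nr3c2 and paqr6, all higher in matured libraries. Of these, paqr6 was below 1 FPKM in every pre-matured library. It passed the filter only through the matured libraries and so could not have been called lower. No entry was found under esr2a, gper1 or the symbols tried for androgen receptors and further progesterone receptors. Genes listed only under a LOC identifier were not analysed here, so counts and sums over the family may leave out receptors.

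The mineralocorticoid receptor gene nr3c2 was 15.3, 17 and 16.2 FPKM in the matured group against 4.50, 6.14 and 7.43 FPKM in the pre-matured group, and its groups did not overlap. Its limma log2 fold change was 1.31 ± 0.23 (SE), with an adjusted p of 0.00418. The glucocorticoid receptor gene nr3c1 was 13.6, 17.7 and 12.5 FPKM in the matured group against 4.83, 7.38 and 8.49 FPKM in the pre-matured group. Its log2 fold change was 0.99 ± 0.26 (SE) with an adjusted p of 0.0192 by limma, a call that was lost without matured 1 (adjusted p = 0.0540) and without matured 2 (adjusted p = 0.0705). The membrane progestin receptor gene paqr6 was low throughout, 1.82 to 2.08 FPKM in the matured group against 0.548 to 0.969 FPKM in the pre-matured group, and its limma call (log2 fold change 0.78, adjusted p = 0.0344) was lost when any library but pre-matured 1 was left out, with adjusted p between 0.0738 and 0.101, and under 4 of the other alternatives.

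Not called were pgrmc1 with a log2 fold change of 0.50 (adjusted p = 0.0796), nenf, a small member of the pgrmc family, with 0.60 (adjusted p = 0.135), and the membrane progestin receptor gene paqr7a with -0.43 (adjusted p = 0.340), all by limma. Without pre-matured 3, pgrmc1 and nenf passed, with adjusted p of 0.0446 and 0.0185. Both also passed with TPM and with totals without genes above 1%. A further 6 family genes were too low to test, with paqr5a, paqr7b, paqr9, esrrb and esrrga at or below 2.48 FPKM in every library and esrrd listed at 0 in all of them.

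Added up over 5 nuclear steroid receptor genes (esr1, esr2b, pgr, nr3c1 and nr3c2), the level was 319, 339 and 428 FPKM in the matured group against 29.6, 55.1 and 52.4 FPKM in the pre-matured group. The makeup of this sum also differed. The share of pgr was 49.0%, 31.8% and 61.9% in matured and 17.2%, 35.7% and 17.7% in pre-matured libraries, with matured 2 below pre-matured 2. The share of esr1 overlapped widely, 34.2%, 51.7% and 26.0% against 38.1%, 26.0% and 36.6%. The share of esr2b was smaller in every matured library, 7.70%, 6.28% and 5.39% against 13.3%, 13.7% and 15.3%, although its own level was higher there. No test was run on these shares.

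**Figure D4:**
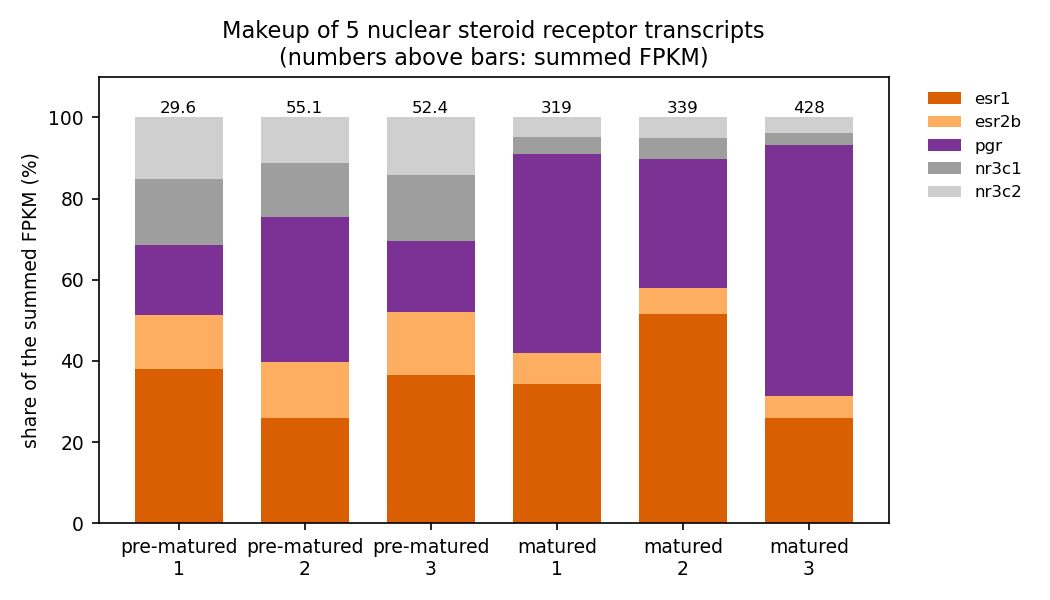
Share of each gene in the summed FPKM of 5 nuclear steroid receptor genes (y axis, percent), 1 bar per library, with the summed FPKM above each bar. The shares of esr2b, nr3c1 and nr3c2 are smaller in all matured bars than in all pre-matured ones.

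Of the genes known in vertebrates to respond to estrogen, more were called higher than lower, as among all tested genes. Of 19 tested on this list, 9 rose (47.4%) and 1 fell (5.3%), where 23.4% and 10% of all tested genes did so. The median log2 fold change was 0.92. The largest rise was that of lhb, the luteinizing hormone beta subunit, at 13430, 5835 and 11134 FPKM in the matured group against 0.543, 0.394 and 29.8 FPKM in the pre-matured group, with a limma log2 fold change of 11.21 (adjusted p = 0.00128), which was 12.67 without pre-matured 3, 10.51 without pre-matured 1 and 10.44 without pre-matured 2. With pre-matured 1 and 2 below 1 FPKM, lhb needed the matured libraries to pass the filter. The count of rises includes genes that passed in this way. The growth regulator gene greb1l was higher by 2.37 on the log2 scale (adjusted p = 0.00134 by limma), and the corepressor gene nrip1b, whose mammalian form is induced by estrogen, was higher by 1.88 (adjusted p = 0.00394 by limma). The only gene that fell was vegfaa, an angiogenic factor, with a log2 fold change of -1.06 (adjusted p = 0.0334 by limma).

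The vegfaa call was lost when any library but pre-matured 1 was left out, with adjusted p between 0.0592 and 0.0988, and under 3 of the other alternatives. Across alternatives, 6 to 12 genes of the list rose and 0 to 3 fell. Also among the genes that rose, and named after its values were seen, was greb1, a chromatin-bound cofactor of estrogen receptor alpha in mammals. Its level was 12.8, 4.24 and 19.0 FPKM in the matured group against 0.00779, 0.396 and 1.32 FPKM in the pre-matured group. With pre-matured 1 and 2 below 1 FPKM, greb1 also needed the matured libraries to pass the filter. Its matured libraries followed the order of pgr, with matured 2 lowest and matured 3 highest, a likeness that was not tested. In the pre-matured group the orders differed, with greb1 highest in pre-matured 3 and pgr highest in pre-matured 2. The limma log2 fold change of greb1 was 2.93 ± 0.52 (SE), with an adjusted p of 0.00484, and the call was lost with voom (adjusted p = 0.0661).

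Genes known to respond to progestins or glucocorticoids were called in both directions. Of 14 tested, 4 rose (28.6%) and 3 fell (21.4%), where 23.4% and 10% of all tested genes did so, and the median log2 fold change was 0.44. The rises include fkbp5, given further on, which was at or below 0.328 FPKM in every pre-matured library. It passed the filter only through the matured libraries and so could not have been called lower. Higher were tsc22d3, a leucine zipper protein induced by glucocorticoids in mammals (1.77, adjusted p = 0.00294), and the zinc finger repressor genes zbtb16b (1.43, adjusted p = 0.00313) and zbtb16a (1.32, adjusted p = 0.00868), both at or below 2.40 FPKM in every library. At such low levels the size was unsure: with all libraries kept, alternatives gave 1.01 to 5.87 for zbtb16b and 0.90 to 4.05 for zbtb16a. Given rises of this size, neither was at 1 FPKM or more in every pre-matured library. Both zbtb16 genes, like fkbp5, therefore needed the matured libraries to pass the filter. The genes that fell were bhlhe40, a transcriptional repressor (-1.81, adjusted p = 0.00289), dusp1, a phosphatase of MAP kinases (-1.46, adjusted p = 0.0212), and hsd11b2, which inactivates cortisol (-1.88, adjusted p = 0.0400), all by limma.

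The dusp1 call was lost without matured 1 or matured 3 (adjusted p = 0.0731 and 0.0681), and that of hsd11b2 when matured 1 or any one of the pre-matured libraries was left out (adjusted p between 0.0580 and 0.0966). With TPM both were lost, and that of hsd11b2 also with no filter and with totals without genes above 1%. Without matured 3, which held 1.97 FPKM of hsd11b2 against 10.9 and 14.0 in the other matured libraries, its log2 fold change was -1.16 (adjusted p = 0.0261 by limma). With a filter of 5 FPKM, 1 gene of this list rose. Without matured 1, 1 gene fell.

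**Figure D5:**
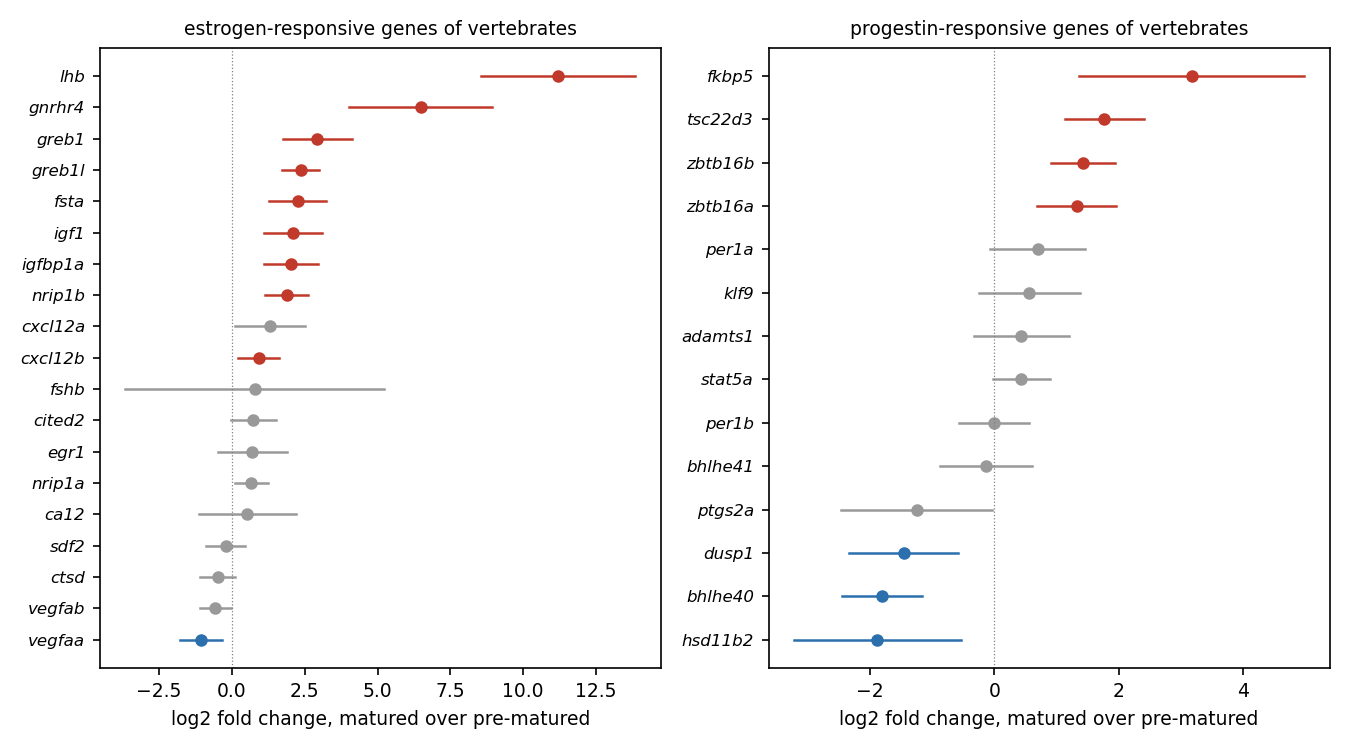
Limma log2 fold change, matured over pre-matured (x axis), with 95% confidence intervals, for the tested genes of the estrogen-responsive and the progestin-responsive list (1 gene per line), red where called higher, blue where called lower and grey where not called. On the estrogen-responsive side 9 genes are red and 1 is blue, and on the progestin-responsive side 4 are red and 3 are blue.

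Nuclear receptors are kept ready for the hormone by chaperones. Among 10 tested chaperone genes, 2 rose and 2 fell (20% each), where 23.4% and 10% of all tested genes did so. Across the alternatives 1 to 4 rose and 0 to 3 fell. The median log2 fold change of the list was -0.24. The cochaperone gene fkbp5 is a glucocorticoid and progestin target in mammals. It was 25.8, 1.65 and 14.9 FPKM in the matured group, again with matured 2 lowest. In the pre-matured group fkbp5 was 0.0737, 0.0764 and 0.328 FPKM, so it passed the filter only through the matured libraries. Its limma log2 fold change was 3.17 (adjusted p = 0.0187), and the call was lost without matured 3 (adjusted p = 0.0592), without pre-matured 1 (adjusted p = 0.0530) and with voom on rebuilt reads (adjusted p = 0.242). The value itself was 4.16 without matured 2 and 2.49 without matured 1. The heat shock cognate gene hspa8 was higher by 1.07 (adjusted p = 0.0104 by limma).

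Lower in this list were hsp90ab1, a constitutive HSP90, with -0.70 (adjusted p = 0.0370), and st13, an HSP70 cochaperone, with -0.61 (adjusted p = 0.0424), both by limma. Each of these calls was lost in 9 of 14 alternatives. The hsp90ab1 call was lost with any library left out but pre-matured 3 (adjusted p between 0.0571 and 0.108), and that of st13 with any library left out (adjusted p between 0.0629 and 0.150).

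Most coactivator genes were not called. Of 26 tested, 3 rose and 3 fell (11.5% each), where 23.4% and 10% of all tested genes did so. Across the alternatives 2 to 6 rose and 0 to 4 fell. The median log2 fold change of the list was 0.13. Higher were smarca2, an ATPase of SWI/SNF remodelling complexes (1.06, adjusted p = 0.00742), prmt1, an arginine methyltransferase (0.79, adjusted p = 0.0127), and ncoa2, a p160 coactivator that binds liganded receptors directly (0.84, adjusted p = 0.0158). Lower were kat5b, an acetyltransferase (-0.78, adjusted p = 0.0129), ncoa5 (-0.85, adjusted p = 0.0135) and carm1, an arginine methyltransferase recruited by p160 coactivators (-0.89, adjusted p = 0.0178), all by limma. The 3 falls were lost with TPM and with totals without genes above 1%. Leaving out 1 matured library also ended the calls of prmt1 (without matured 3, adjusted p = 0.0523), ncoa2 (without matured 1 or 2, 0.0661 and 0.0550), ncoa5 (without matured 1 or 3, 0.0528 and 0.0529) and carm1 (without matured 1 or 2, 0.0535 and 0.0659). The prmt1 call was also lost with median-ratio scaling and with voom, and that of ncoa2 with quantile normalization.

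Of 18 tested corepressor genes, 6 rose (33.3%) and 1 fell (5.6%), where 23.4% and 10% of all tested genes did so. Across the alternatives 4 to 10 rose and 0 to 2 fell. The median log2 fold change of the list was 0.31, against 0.23 over all tested genes. The smallest p-values among the rises were those of nrip1b, of sin3aa, a scaffold of histone deacetylase complexes (1.57, adjusted p = 0.00390), and of nr2f2, an orphan nuclear receptor that represses many promoters (2.05, adjusted p = 0.00391), by limma. The gene that fell was mta1, a subunit of the NuRD complex (-1.03, adjusted p = 0.0161 by limma), and this call was lost without matured 1 or 3 (adjusted p = 0.0593 and 0.0511), with TPM and with totals without genes above 1%.

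Among partner factors of estrogen receptors on DNA, 9 were tested. Of these, 3 rose (33.3%) and 2 fell (22.2%), where 23.4% and 10% of all tested genes did so. Across the alternatives 0 to 3 rose and 1 to 2 fell. The median log2 fold change of the list was 0.59. The AP-1 gene fosl1a fell from 36.9, 28.6 and 26.1 FPKM in the pre-matured group to 1.19, 1.21 and 1.02 FPKM in the matured group, without overlap, a limma log2 fold change of -3.87 (adjusted p = 0.000284). Its relative fosl2 was also lower, with a log2 fold change of -1.34 (adjusted p = 0.0362), whereas jun, another AP-1 component, was higher by 1.18 (adjusted p = 0.0171). Higher too were pbx1b, a homeodomain factor (0.74, adjusted p = 0.0388), and tfap2b, an AP-2 factor (0.84, adjusted p = 0.0364), all by limma.

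Of these calls, fosl1a alone held with every library left out. The jun call was lost without matured 3 (adjusted p = 0.0545) and with median-ratio scaling (0.0523), that of fosl2 without matured 1 or 3 or pre-matured 1 or 2 (between 0.0933 and 0.113), and those of pbx1b and tfap2b when any library but pre-matured 3 was left out (between 0.0577 and 0.121 and between 0.0545 and 0.123). Counting all alternatives, the calls of fosl2, pbx1b and tfap2b were lost in 7 of 14, 9 of 14 and 10 of 13.

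For pgrmc2, partner and pathway genes were those of cytochrome P450 electron transfer, heme and sterol synthesis. Of 14 tested, 4 rose (28.6%) and 0 fell, where 23.4% and 10% of all tested genes did so. The median log2 fold change of the list was 0.44. The rises numbered 2 without matured 1, matured 2 or pre-matured 1, 2 with median-ratio scaling or quantile normalization, and 1 with voom. Without matured 2, 1 gene was called lower, alas1 (heme synthesis; named after its values were seen), at -0.76 (adjusted p = 0.0377 by limma) against -0.42 (adjusted p = 0.289) with all libraries. Higher were pora, the reductase that feeds electrons to P450 enzymes (1.23, adjusted p = 0.0109), dhcr7, a late enzyme of cholesterol synthesis (1.08, adjusted p = 0.0201), and fech, which inserts iron to form heme (1.11, adjusted p = 0.0272), all by limma. The dhcr7 call was lost when matured 1 (adjusted p = 0.0731) or pre-matured 1 (0.0579) was left out, and that of fech without matured 1, matured 2 or pre-matured 3 (adjusted p between 0.0626 and 0.0901). With voom both were lost.

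Enzymes that make or inactivate steroids affect how much hormone reaches the receptors. Of 17 tested, 3 rose (17.6%) and 2 fell (11.8%), near the 23.4% and 10% of all tested genes, at a median log2 fold change of 0.49. The hydroxysteroid dehydrogenase gene hsd17b3, whose mammalian enzyme makes testosterone, was 146.8, 90.8 and 167.0 FPKM in the matured group against 0.633, 8.32 and 3.54 FPKM in the pre-matured group. It had matured 2 lowest and pre-matured 2 highest within the groups, as pgr did. Among all genes called higher, 24.2% had their lowest matured value in matured 2, and the shared order was not tested. The limma log2 fold change of hsd17b3 was 5.0 (adjusted p = 0.00184). It was 4.34 without pre-matured 1 and 5.60 without pre-matured 2. Also higher were hsd20b2, a hydroxysteroid dehydrogenase that acts on cortisone in zebrafish (1.58, adjusted p = 0.00309), and srd5a1, a steroid 5-alpha reductase (1.64, adjusted p = 0.00643), by limma. Lower were tspo, an outer mitochondrial membrane protein (-1.86, adjusted p = 0.00223 by limma), and hsd11b2, given above.

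For each of the 4 genes, the named genes with the most similar profile were sought among 10058 tested genes with a symbol, by the root mean square distance of log2 values centred on their mean over the 6 libraries. Nearest to esr1 were gabra3, a GABA-A receptor subunit gene (distance 0.114), fam102aa (0.120) and syt7a, a calcium sensor of exocytosis (0.180). These are likenesses on the log2(FPKM + 1) scale, on which the pseudocount shrinks changes of low values: the ratios of group means were 27.5, 14.1 and 15.8 for gabra3, fam102aa and syt7a against 8.84 for esr1, and gabra3 had 4 to 28 reads in the pre-matured libraries. Its log2 fold change reached 4.77 with voom, where no alternative put esr1 above 3.41. Nearest to esr2b were rybpb, a Polycomb-associated protein gene (0.0566), nmnat2, an enzyme of NAD synthesis (0.0810), and fbxl2, an F-box protein gene (0.0832). Their ratios of group means were 5.79, 3.36 and 3.72 against 3.53 for esr2b, and rybpb had 14 to 56 reads in the pre-matured libraries. The distances were larger for pgr, whose nearest genes were vwa5b2 (0.311), pcdh10a, a protocadherin gene (0.421), and ppm1lb, a phosphatase gene (0.435). Of these, pcdh10a had only 11 reads in pre-matured 1. Nearest to pgrmc2 were rnf214 (0.0753), ywhae1, a 14-3-3 protein gene (0.0768), and ttc5 (0.0798). The distance between pgr and esr1 was 0.858, so that esr1 was number 54 in the order of genes near pgr and pgr number 633 in that near esr1.

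Some markers of the cell types that a pituitary holds were called and most were not, where 23.4% of all tested genes rose and 10% fell. No lactotroph marker of 2 tested and no glia marker of 2 tested was called by limma. Gonadotroph markers, of which 3 of 6 were found, summed to 6364 to 13721 FPKM in the matured group against 5.69 to 51.0 FPKM in the pre-matured group; lhb and gnrhr4, a receptor gene for gonadotropin-releasing hormone, both rose (limma log2 fold change 6.49 for gnrhr4, adjusted p = 0.00450, a call lost with voom at 0.242; 7.86 without matured 2, 5.76 without matured 1 and 5.84 without matured 3), and fshb, the follicle-stimulating hormone beta subunit, was not called. Within the matured group gnrhr4 was 287, 14.5 and 254 FPKM and fshb 4.44, 514 and 0.899 FPKM in libraries 1, 2 and 3, so matured 2 stood apart in both. Given its matured levels and its log2 fold change of 6.49, gnrhr4 was below 1 FPKM in every pre-matured library. It thus passed the filter only through the matured libraries and could not have been called lower. Both lhb and gnrhr4 are also on the estrogen-responsive list. The marker sum of somatotrophs and somatolactotrophs was 10728 to 31662 FPKM against 3078 to 3169 FPKM, and gh1 rose (3.05, adjusted p = 0.00479 by limma).

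The part of cell makeup in the receptor changes was not tested. Markers of pericytes, fibroblasts and smooth muscle summed to 157 to 206 FPKM in the matured group against 475 to 493 FPKM in the pre-matured group. Of the 8 tested 1 was higher, pdgfra, 2 were lower, tagln and acta2, and 5 were not called. Their median log2 fold change was 0.65, so the sums and the median went in opposite directions. No endothelial marker of 7 tested and no leukocyte marker of 5 tested was called by limma, and their sums overlapped between the groups. The erythrocyte enzyme gene alas2 was 2.39 to 3.40 FPKM in the matured group against 7.12 to 76.6 FPKM in the pre-matured group (limma log2 fold change -2.46, adjusted p = 0.0396), a call lost when any one of the matured libraries or pre-matured 3 was left out (adjusted p between 0.0516 and 0.10). Its value was -1.54 without pre-matured 1 and -3.17 without pre-matured 2. That of acta2 was lost without matured 1, matured 2, pre-matured 1 or pre-matured 3 (adjusted p between 0.0915 and 0.114). Of 6 tested neuron markers only nefma was called, higher in matured libraries (2.56, adjusted p = 0.00480 by limma). Among further markers, trhra (thyrotrophs), crhr1 and pax7b (corticotrophs and melanotrophs) and aldh1a2 (progenitors) were called higher and tbx19 lower by limma, with log2 fold changes of 1.67, 2.51, 3.14, 3.06 and -1.53. Only 1 thyrotroph marker was tested. Of 6 tested corticotroph and melanotroph markers 3 were not called, and their sums overlapped (263 to 411 FPKM in matured, 183 to 586 in pre-matured). Of 3 tested progenitor or folliculostellate markers 2 were not called, and their sums overlapped too (99.0 to 109 FPKM in matured, 97.6 to 152 in pre-matured).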

How the data were processed

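The deposited table holds 1 FPKM value per gene and library. The unit was read from the values, which would look alike in RPKM. Per the labels' protocols, the authors isolated total RNA with TRIzol and used an NEBNext Ultra II kit for the libraries; the submitters' processing notes list CASAVA 1.8. For the aligner, counting method and build, names were not given in the sources used here, so how reads of paralogs were assigned is unknown. Whole reads were rebuilt for all 27501 genes above 0 (relative tolerance 1e-09; 0 of 1000 shuffled genes).

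The labels' age field gave the groups. Genes with FPKM of at least 1 in at least 3 libraries were tested with limma 3.58.1 (R 4.3.3; lmFit, eBayes with trend and robust settings) on log2(FPKM + 1), Benjamini-Hochberg adjusted p under 0.05. The procedure was tested on simulated reads in which few genes changed, as many up as down. That test does not cover the effect of scaling on calls, since its genes held no shared shift. Ratios were compared with exact permutation tests (scipy 1.17.1). The genes and lists were chosen with earlier results of these data known. From each of the lists (9 of pathways, 12 of cell type markers), up to 3 called genes per direction with the smallest p were named, and all of the receptor family; marker genes are given in part. Alternatives were a pseudocount of 0.1, filters of 0 and 5 FPKM, TPM, totals without genes above 1%, scaling by quantiles or median ratios, voom on the rebuilt reads, and each library left out in turn.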

Additional observations from a re-analysis of the deposited data

How the results depend on the processing

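With each library left out, and under 8 other alternatives, esr1, esr2b and pgr kept their direction and their call, and so did pgrmc2 except with TPM (-0.58) and with totals without genes above 1% (-0.56), where the family list had 0 genes called lower. Scaling moves the median of all genes to between -0.02 (quantile normalization) and 0.53 (TPM). Calls over all genes were more sensitive. The count called higher was 2714 with a filter of 5 FPKM, which tests fewer genes, 6282 with totals without genes above 1%, and 2697 to 3910 with 1 library left out. The count called lower was 990 with TPM, 1028 with totals without genes above 1%, 2741 with median-ratio scaling, 2896 with quantile normalization, and 1052 to 1661 with 1 library left out. The share of calls that were higher was 70.0% as reported, 86.0% with TPM, 85.9% with totals without genes above 1%, 53.7% with median-ratio scaling, 53.5% with voom and 50.1% with quantile normalization. Family genes called higher numbered 4 to 7 with 1 library left out. Of 899 values for the other 65 named results, 769 kept their call, 124 lost it, 6 gained it and 0 reversed. No paired analysis was run because the labels give no pairing between matured and pre-matured libraries. The 4 genes had at least 355 reads in each library. The spread between libraries was larger than counting error for esr1, esr2b and pgr. For pgrmc2 in matured libraries it was close to counting error, 5.92% against 4.76%.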

Other observations

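Of the 9 estrogen-responsive genes that rose, 7 had their lowest matured value in matured 2, the library that also had the lowest pgr and the highest esr1. Among all 4184 genes called higher, 24.2% had their lowest matured value there, and 47.8% had their highest. The library order was looked at after the values were seen, and it was not tested. Matured 2 was set apart above by its low gnrhr4, which is among the 7 genes, so the count partly restates that observation. The 7 genes included lhb, greb1, greb1l, nrip1b, gnrhr4, igf1, the insulin-like growth factor gene (11.8, 8.27 and 12.4 FPKM in matured 1, 2 and 3), and igfbp1a, a binding protein gene for such factors (62.1, 34.7 and 88.1 FPKM). In fsta, which encodes the activin-binding protein follistatin, matured 1 was lowest instead, at 5.01, 9.23 and 19.9 FPKM.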
